A study of Mus musculus with 12 samples.

Results

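The myosin isoforms of skeletal muscle were followed in whole ear tissue of mice with 10 genes, 6 heavy chains (Myh1, Myh2, Myh3, Myh4, Myh7 and Myh8) and 4 light chains (Myl1, Myl2, Myl3 and Myl4). They are 10 of 18194 genes named on the array, and 16 of its 45101 probe sets name 1 of them and no other gene. The genes were chosen by their levels over age on these same arrays, so their age differences are given as values with no test. A further 2 probe sets name Myh7 together with the cardiac gene Myh6 and were left out.

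Ears were taken at 2, 4 and 6 weeks from mice homozygous for the Spade allele (Spade/Spade) and from littermates of wild type, with 2 arrays in each of the 6 groups. Spade is known from the line's publication as an activating mutation of the kinase Jak1, and homozygotes develop dermatitis. The labels give no sex or strain, and do not say whether the arrays of a group are separate animals or pools, so errors and p-values measure only the spread between arrays. Each sample of total RNA was measured on 1 Affymetrix Mouse Genome 430 2.0 array, and levels are the authors' deposited GCRMA values on the log2 scale, which have a floor of 2.14.

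Skeletal muscle myosin is a hexamer of a pair of heavy chains, which carry the motor, and light chains bound to the neck of each. Muscle of embryos and newborns uses the embryonic (Myh3) and perinatal (Myh8) heavy chains, which are replaced after birth by the adult fast chains 2A (Myh2), 2X (Myh1) and 2B (Myh4) and, in slow fibres, by Myh7. The embryonic, perinatal and fast genes lie side by side in 1 cluster, while Myh7 lies elsewhere beside Myh6, and Myh7, Myl2 and Myl3 also serve the ventricles of the heart.

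The perinatal gene of the cluster and its 3 adult fast genes are shown with the stretch upstream of the start that they share. Over the 250 bases before each start in the RefSeq promoter table (GRCm38.p6), the longest run of letters common to Myh1, Myh2, Myh4 and Myh8 was 14 bases, and these were the only 4 of 32851 promoters (0.0122%) that held it on either strand. Each line below is the 70 bases that end with that run, 5′ to 3′ on the plus strand of chromosome 11. The capitals at the right end mark the shared run, and other capitals mark a match to the MEF2 consensus, the letters known to be bound by the MEF2 factors of muscle; a match of letters is not a measured site.
Myh2, chr11:67170846-67170915: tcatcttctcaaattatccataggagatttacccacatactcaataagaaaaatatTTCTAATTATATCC
Myh1, chr11:67199886-67199955: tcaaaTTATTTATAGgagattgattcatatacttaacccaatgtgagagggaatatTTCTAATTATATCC
Myh4, chr11:67237598-67237667: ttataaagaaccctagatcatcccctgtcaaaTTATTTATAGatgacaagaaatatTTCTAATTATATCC
Myh8, chr11:67277014-67277083: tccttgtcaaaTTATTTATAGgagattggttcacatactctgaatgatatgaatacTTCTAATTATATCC
The run began 125 bases before the start of Myh2, 160 before that of Myh1, 158 before that of Myh4 and 54 before that of Myh8. The MEF2 match stood 41 bases before the run in Myh1, 14 in Myh4 and 35 in Myh8, and each match overlaps a TATAAA on the opposite strand. A match occurs in 959 of 32851 promoters (2.92%), and none was found in these windows of the other 7 genes. Among the pairs of the 4, the longest shared run was 22 bases, between the perinatal Myh8 and the fast Myh1. Myh3, in the same cluster, shared at most 11 bases with any of the 4.

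All 10 genes passed the filter on low values (a level of no less than 4 on 2 or more arrays), with the probe set of highest mean taken for each gene. Of the 16 probe sets, 14 passed, 8 were called present by MAS5 on all 12 arrays, and 1, for Myh1, on none. Markers of skeletal muscle fit the label of the tissue: 7 of 7 were tested, and their mean level was 12.76 to 13.88 on 11 arrays and 10.99 on the last. Of 8 cardiac markers only Sln, which skeletal muscle also uses, was tested. Smooth muscle markers, 6 of 8 tested, stayed at a mean of 8.94 to 9.64. Whole ear is a mixture, so fewer muscle fibres and less RNA per fibre cannot be told apart in any value here.

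The array that stood apart was Spade 2-week replicate 3. Its mean over 23 genes common to all sarcomeres, such as actin, titin and creatine kinase, was 8.04, against 10.29 to 11.60 on the other arrays. Its mean over 8 hair shaft genes was 12.50, against 2.30 to 5.89 elsewhere, so low muscle and high hair RNA went together on it. Cartilage markers were also lowest there, at 9.07 against 9.97 to 11.18. The part of these differences in the myosin values was not tested, and results that rest on this array are given with and without it. Replicates correlated at r = 0.985 to 0.994 in 5 groups and at 0.939 in the Spade group at 2 weeks.

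**Figure D1:**
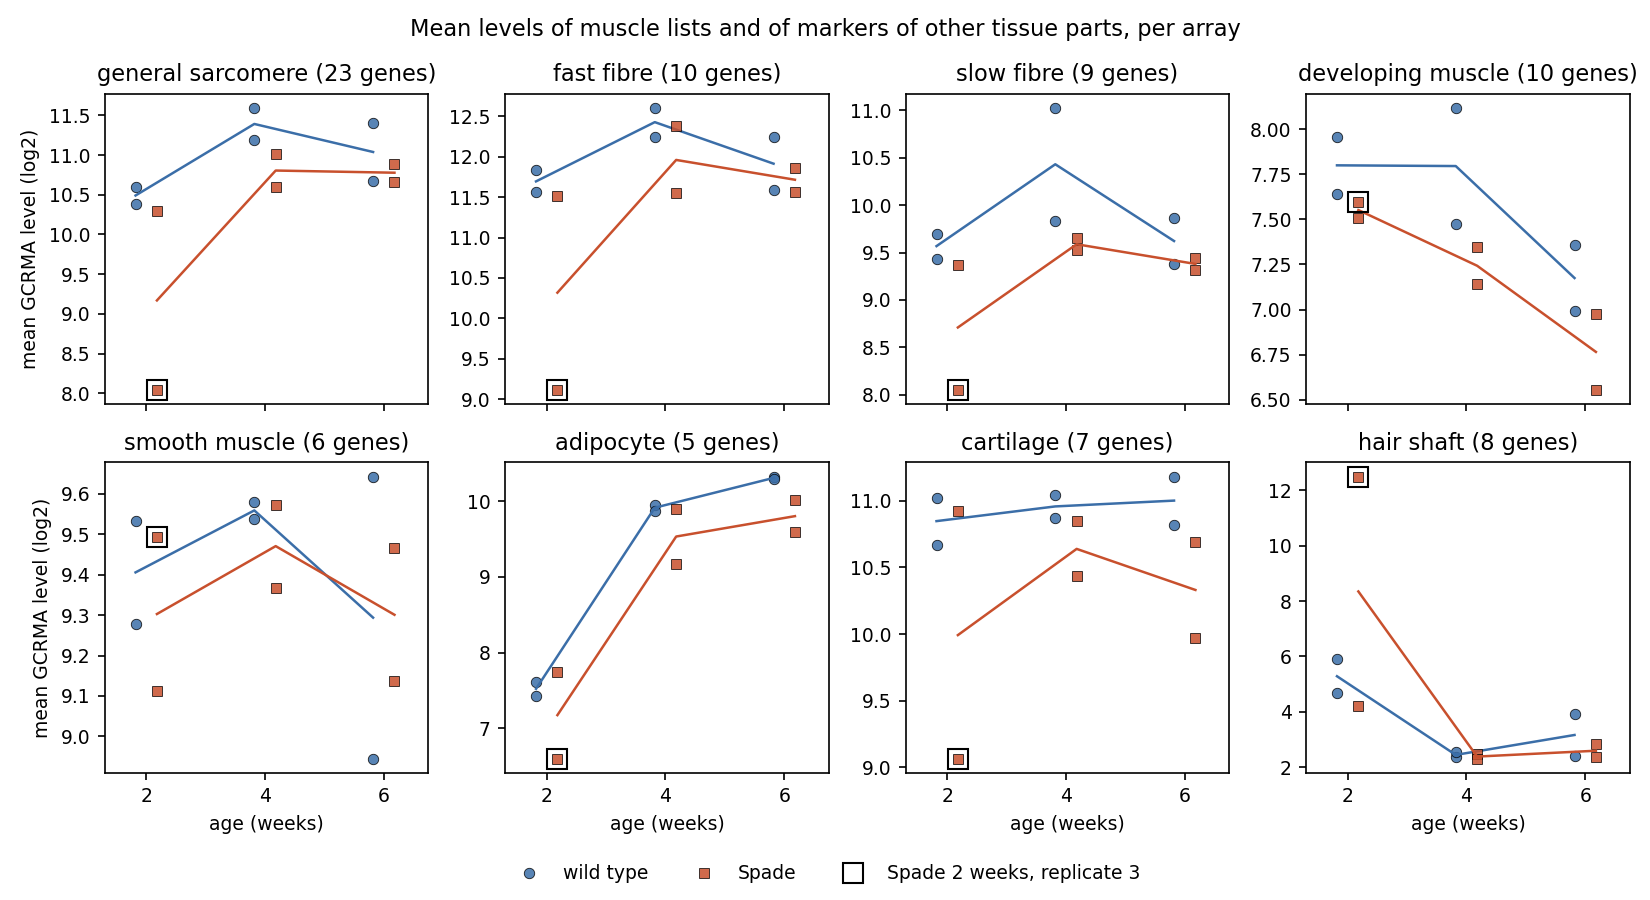
Mean GCRMA level (log2, vertical axis) of 4 muscle lists and 4 marker lists against age in weeks, with 1 point per array and lines through the means of 2 arrays; the open box marks Spade 2-week replicate 3. That array is lowest for the general sarcomere, fast and slow lists (8.04 for general sarcomere) and highest for hair shaft (12.50), while adipocyte genes rise with age in both genotypes.

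Array numbers in the labels fall into 3 ranges. The first holds the Spade 4-week arrays with 1 wild-type array at 4 and 1 at 6 weeks, the second holds the Spade 6-week arrays with the other wild-type 4- and 6-week arrays, and the third holds all 4 arrays of 2 weeks. Any change from 2 weeks and the step to the third range therefore cannot be told apart. Within the first and second ranges the wild-type change from 4 to 6 weeks can be read, and it is given below.

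Myh8, the perinatal heavy chain, was lower at each later age. Its level was 10.25 and 10.92 in wild type at 2 weeks, 10.32 and 8.06 at 4 weeks, and 4.49 and 6.47 at 6 weeks. In Spade it was 10.24 and 11.68 at 2 weeks, 6.77 and 7.81 at 4 weeks, and 5.56 on both arrays at 6 weeks. All 4 arrays of 6 weeks lay below all others, and all 4 arrays of 2 weeks lay above those of Spade at 4 weeks. From 2 to 6 weeks the log2 difference was -5.11 ± 0.85 (SE, n = 2 a group) in wild type, a 34.5-fold lower level, and -5.40 ± 0.85 in Spade, 42.1-fold lower. With each array left out in turn the folds ran from 17.3 to 68.6 in wild type and from 25.5 to 69.5 in Spade, where 25.5 is the value without Spade 2-week replicate 3. On 1 of the 2 wild-type arrays at 6 weeks Myh8 was called absent, so these folds rest on levels near background.

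At 4 weeks the Myh8 difference between genotypes, -1.90 ± 0.85, did not pass the test (limma, adjusted p = 1.0). The wild-type mean was 9.19 ± 1.60 (SD, n = 2) and the Spade mean 7.29 ± 0.74, and wild-type replicate 1 alone kept a 2-week level. The arrays of the genotypes did not overlap, which is common with 2 arrays a group. The share of all genes with no overlap was not computed at 4 weeks, and at 6 weeks it was 45.5%. Most of the wild-type difference lay between 4 and 6 weeks (-3.71), and most of the Spade difference between 2 and 4 weeks (-3.67 against -1.73 later). Within the first array range the wild-type difference from 4 to 6 weeks was -5.84, and within the second it was -1.59. The difference between genotypes in the change from 4 to 6 weeks, 1.98 ± 1.21, did not pass the test (limma, adjusted p = 1.0), and the order of the group means was Spade 2, wild type 2, wild type 4, Spade 4, Spade 6 and wild type 6 weeks. Of these neighbours, the last pair and the first 3 groups overlapped each other.

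Myh3, the embryonic heavy chain, did not follow Myh8 in levels as measured. It was called present on all 12 arrays and ran from 10.31 to 12.15, with wild-type levels of 11.33 and 11.63 at 2 weeks, 12.15 and 11.52 at 4 weeks, and 10.94 and 11.65 at 6 weeks. The Spade arrays gave 11.06 and 10.31, 11.17 and 11.28, and 11.13 and 10.72 at the same ages. The wild-type groups overlapped each other at every age, and the change from 2 to 6 weeks was -0.18 ± 0.32 in wild type and 0.24 ± 0.32 in Spade. In levels as measured, the isoform that is known to precede Myh8 in development thus did not share its course over age. Relative to the mean of the sarcomere genes, every later array (-0.31 to -0.94) lay below every 2-week array (-0.22 to 1.27) for Myh3. On that scale the change from 2 to 6 weeks was -0.73 ± 0.77 in wild type and -1.37 ± 0.77 in Spade. For Myh8 it was -5.65 ± 0.81 and -7.00 ± 0.81. The Spade values include Spade 2-week replicate 3.

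Myh4, the 2B chain of the fastest fibres, was 12.88 and 12.91 in wild type at 2 weeks, 13.66 and 13.86 at 4 weeks, and 12.88 and 13.85 at 6 weeks. In Spade it was 12.75 and 10.07, then 13.97 and 12.93, then 13.36 and 13.20. Wild-type arrays of 4 weeks lay above those of 2 weeks by 0.87 ± 0.73, and those of 6 weeks overlapped both. The larger difference in Spade from 2 to 6 weeks, 1.87 ± 0.73, was 0.53 without the array that stood apart. A second Myh4 probe set went the other way in wild type, from 8.72 and 8.82 at 2 weeks to 6.14 and 7.32 at 6 weeks (-2.04 ± 1.14), so the 2 probe sets disagree on the direction of Myh4 with age.

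Myh1, the 2X chain, was nearly level. Outside the array that stood apart (12.28), its 11 values lay between 14.82 and 15.27, and the change from 2 to 6 weeks was 0.13 ± 0.62 in wild type. In Spade the same change was 1.25 ± 0.62 with that array and -0.05 without it. A second probe set gave 0.17 ± 0.48 in wild type and 1.08 ± 0.48 in Spade.

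Myh2, the 2A chain of fast oxidative fibres, was 10.73 and 10.84 in wild type at 2 weeks, 12.60 and 11.33 at 4 weeks, and 11.43 and 11.80 at 6 weeks. In Spade it was 10.32 and 5.27, then 10.90 and 10.92, then 11.33 and 11.41. In both genotypes all later arrays lay above those of 2 weeks, by 0.83 ± 1.25 in wild type and 3.57 ± 1.25 in Spade from 2 to 6 weeks. Without Spade 2-week replicate 3 the Spade difference was 1.05. On that array Myh2 was 5.52 below the wild-type 2-week mean, where the sarcomere list was 2.45 below it, so Myh2 was low there beyond the muscle genes as a whole.

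**Figure D2:**
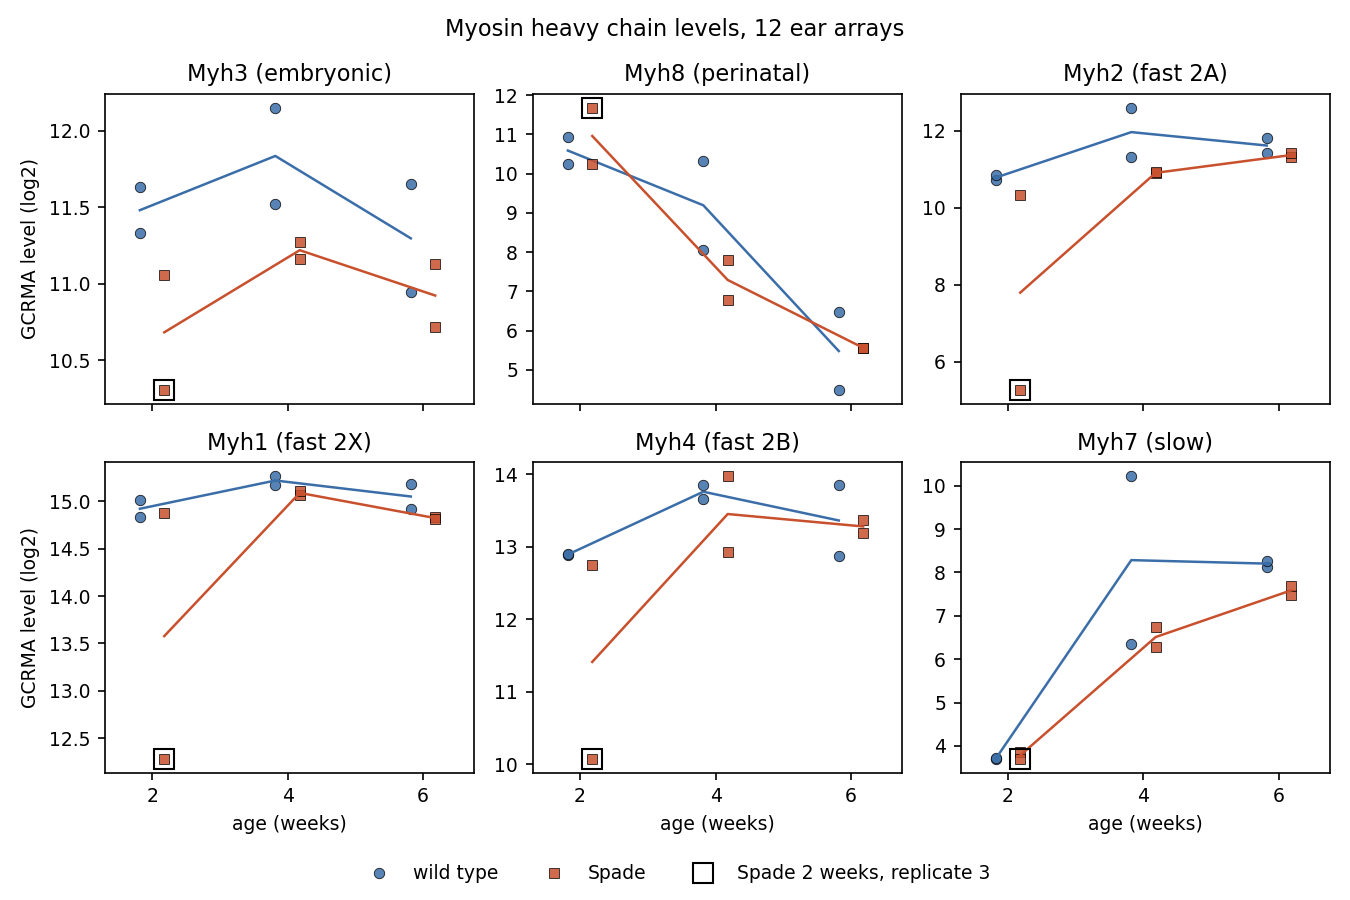
GCRMA levels (log2, vertical axis, its own scale in each panel) of the 6 heavy chain genes against age in weeks, with 1 point per array and lines through the means of 2 arrays; the open box marks Spade 2-week replicate 3. Myh8 runs from 10.24 to 11.68 at 2 weeks down to 4.49 to 6.47 at 6 weeks, Myh7 moves the other way, and the fast chains are lowest on the boxed array.

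Myh7, the slow heavy chain, was called absent on all 4 arrays of 2 weeks. Its level there was 3.71 on both wild-type arrays and 3.86 and 3.71 on the Spade arrays. At 4 weeks it was 10.22 and 6.35 in wild type and 6.74 and 6.29 in Spade, with 1 array of each genotype called present. At 6 weeks all 4 arrays were called present, with 8.14 and 8.27 in wild type and 7.48 and 7.69 in Spade. Every later array lay above every 2-week array. From 2 to 6 weeks the difference was 4.50 ± 0.94 in wild type, an at least 22.5-fold higher level, and 3.80 ± 0.94 in Spade, at least 14.0-fold. These folds are bounds on the GCRMA scale because the 2-week level is not above background. On the MAS5 scale the same differences were smaller, at least 2.91 (7.49-fold) in wild type and at least 1.45 (2.74-fold) in Spade. Signals under 50 were set to 50 there, and the wild-type 2-week signals were 14.4 and 62.3. The size of these differences thus depends on the signal used and on that floor.

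Wild-type 4-week replicate 1 carried the highest Myh7 level of all 12 arrays. It was also the highest in Myh1, Myh2, Myh3, Myl1, Myl2 and Myl4, and its sarcomere list mean of 11.60 was the highest too. Within the first array range Myh7 was 2.08 lower in wild type at 6 than at 4 weeks, and within the second it was 1.92 higher. The course of Myh7 in wild type after 4 weeks therefore depends on which array is read.

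Myl2, the slow regulatory light chain, was higher at both later ages, in the same direction as Myh7. It was 3.32 and 4.56 in wild type at 2 weeks, a mean of 9.01 ± 1.39 (SD, n = 2) at 4 weeks with 8.03 on the lower array, and 9.61 and 9.72 at 6 weeks. In Spade it was 2.37 and 2.44 at 2 weeks, where both arrays were called absent, then 8.14 and 7.63, then 8.98 and 8.58. All arrays of 2 weeks lay more than 3 below all later ones. The difference from 2 to 6 weeks was 5.72 ± 0.59 in wild type, 52.9-fold, and 6.38 ± 0.59 in Spade, at least 83.2-fold. On the MAS5 scale, with its floor of 50, these were 3.48 (11.1-fold) and at least 3.95 (15.4-fold). Both Spade 2-week signals, 47.9 and 18.1, lay under that floor. Most of the GCRMA difference had occurred by 4 weeks, with 5.07 ± 0.59 in wild type and 5.48 ± 0.59 in Spade.

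Myl3, the slow essential light chain, moved the same way with a size that depended on the probe set. The probe set of highest mean read 6.30 on both wild-type arrays and 6.30 and 6.33 on the Spade arrays at 2 weeks. It then read 7.43 and 6.41 in wild type and 6.70 and 6.39 in Spade at 4 weeks, and 7.74 and 7.81 against 7.01 and 7.31 at 6 weeks. From 2 to 6 weeks this was 1.47 ± 0.29 in wild type and 0.84 ± 0.29 in Spade, where both 2-week arrays were called absent, so that the Spade difference is a lower bound. Both wild-type 2-week arrays, though called present, were at the lowest level of this probe set, the same as on an absent Spade array. The wild-type difference may thus be a lower bound too. A second probe set, called absent on all 4 arrays of 2 weeks, read 2.87 and 2.91 at 2 weeks and 7.62 and 8.12 at 6 weeks in wild type, a difference of at least 4.98 ± 0.72, and the Spade difference was at least 4.13 ± 0.72. On both probe sets every 6-week array lay above every 2-week array.

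Myl4, the light chain of embryonic muscle and of the atria, was lower at 6 than at 2 weeks like Myh8, by less. It was 7.30 and 7.17 in wild type at 2 weeks, 8.30 and 6.85 at 4 weeks, and 5.52 and 6.73 at 6 weeks. In Spade it was 7.15 and 8.29, then 6.45 and 6.31, then 6.71 and 6.05. All arrays of 6 weeks lay below all those of 2 weeks, with a log2 difference of -1.11 ± 0.56 in wild type and -1.34 ± 0.56 in Spade. Between these ages its course differed from that of Myh8: wild type was 0.34 higher at 4 than at 2 weeks, and Spade was nearly level from 4 to 6 weeks (0.0055). Without Spade 2-week replicate 3 the Spade difference was -0.77.

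Myl1, the fast essential light chain, differed less with age. It was 13.91 and 14.17 in wild type at 2 weeks, 14.44 and 13.74 at 4 weeks, and 13.31 and 13.66 at 6 weeks, a change of -0.56 ± 0.54 from 2 to 6 weeks with no overlap. In Spade it was 14.10 and 12.19, then 13.89 and 13.29, then 13.24 and 12.62. The Spade change was -0.21 ± 0.54, or -1.17 without the array that stood apart. The fast light chain was thus not higher at 6 than at 2 weeks in wild type.

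**Figure D3:**
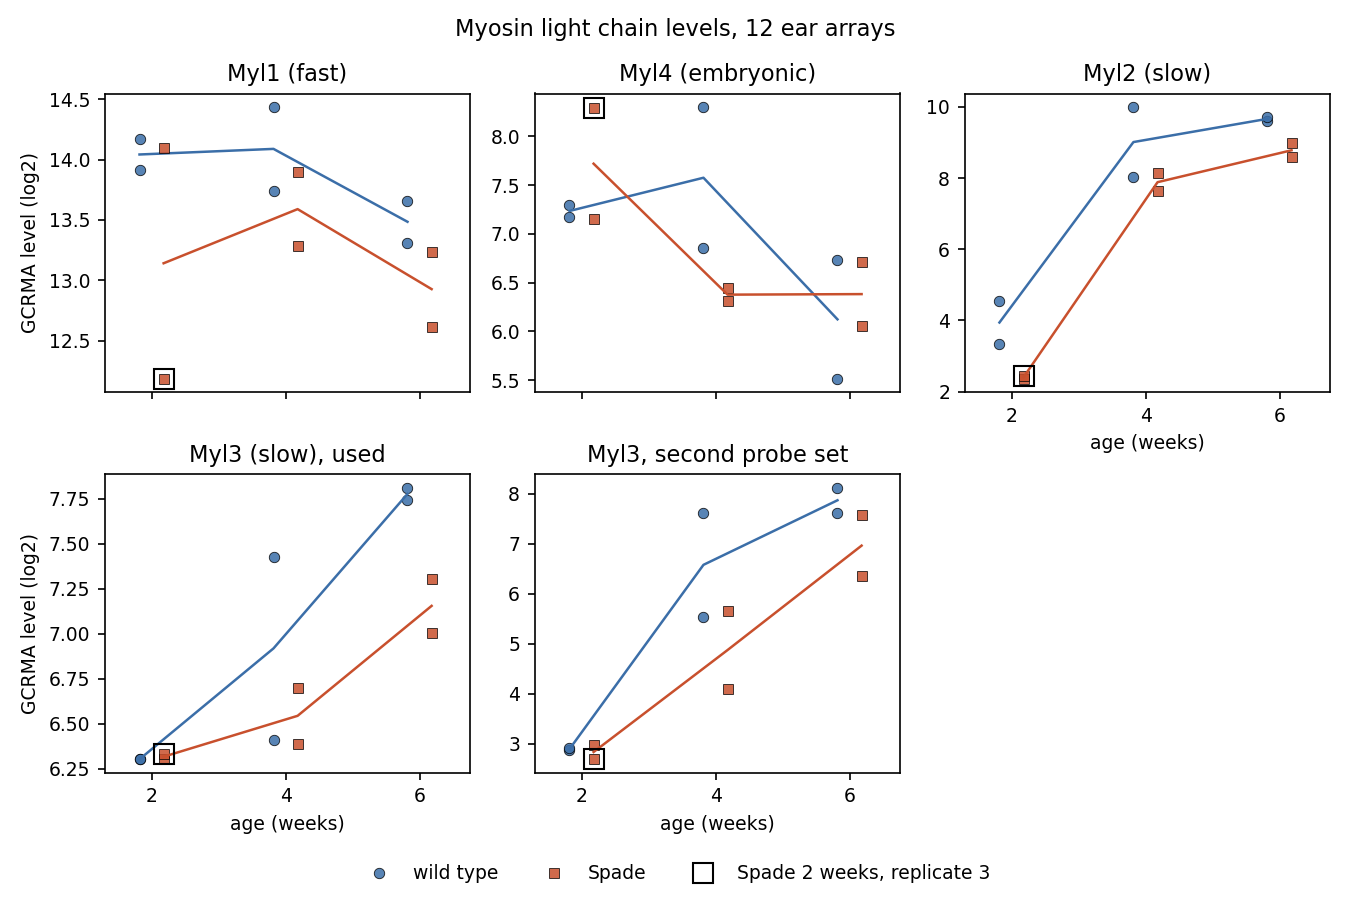
GCRMA levels (log2, vertical axis, its own scale in each panel) of the 4 light chain genes against age in weeks, with a second Myl3 probe set; 1 point per array, lines through the means of 2 arrays, and an open box for Spade 2-week replicate 3. Myl2 goes from 2.37 to 4.56 at 2 weeks to 8.58 to 9.72 at 6 weeks, and the 2 Myl3 probe sets shown differ in how far they go up.

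The exchange was also read within each array, as the change of 1 isoform from its wild-type 2-week mean minus the change of another, which removes any difference in muscle content common to both. Myh8 minus Myh4 was -6.08 and -5.07 on the wild-type 6-week arrays and -5.50 and -5.33 on the Spade ones, so the 2 genotypes overlapped. At 4 weeks it was -1.03 and -3.49 in wild type and -4.90 and -2.81 in Spade, which also overlapped. Myh7 minus Myh4 was 4.44 and 3.60 in wild type and 3.30 and 3.68 in Spade at 6 weeks. Myl2 minus Myl1 was 6.41 and 6.16 against 5.84 and 6.07. On each of the 4 arrays of 6 weeks, perinatal Myh8 thus stood at least 5.07 lower against fast Myh4 than in wild type at 2 weeks, and slow Myh7 at least 3.30 higher. Against the second Myh4 probe set Myh8 was lower by less on the same arrays, at -3.47 and -2.67 in wild type and -2.83 and -3.59 in Spade, and Myh7 was 5.42 to 7.06 higher. The direction was thus shared by both Myh4 probe sets and the size was not.

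Spade 2-week replicate 3 read differently on this scale. Of its fast chains, Myh1 and the Myh4 probe set of highest mean were low in step with its sarcomere genes. Relative to the sarcomere list, their changes were -0.19 and -0.37. The second Myh4 probe set was further down than the list, at 4.57 against a wild-type 2-week mean of 8.77. Myh8 was 3.54 higher and Myl4 3.50 higher relative to that list, and Myh3 1.27 higher. Myh2 was 3.07 lower on the same scale. Myh7 (2.44) and Myl3 (2.48) were called absent there, so their relative values do not stand for levels above background. The 3 developmental isoforms were thus relatively high on this array and the adult 2A chain relatively low, though Myh3 as measured (10.31) was at its lowest of the 12 arrays. The list of developing muscle had no one direction there in levels as measured: of its 10 tested genes, 4 were at their highest of the 12 arrays (Myog, Ncam1, Igf2 and Dlk1) and 4 at their lowest (Chrna1, Chrne, Myf6 and Ankrd1). Its mean was 7.60 on this array and 7.80 in wild type at 2 weeks. The sarcomere list was 2.45 lower there, so relative to it the mean of the developing list was higher too. The second Spade array of 2 weeks did not share the relative pattern of the isoforms, with relative changes of -0.15 for Myh8, 0.11 for Myl4 and -0.26 for Myh2.

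**Figure D4:**
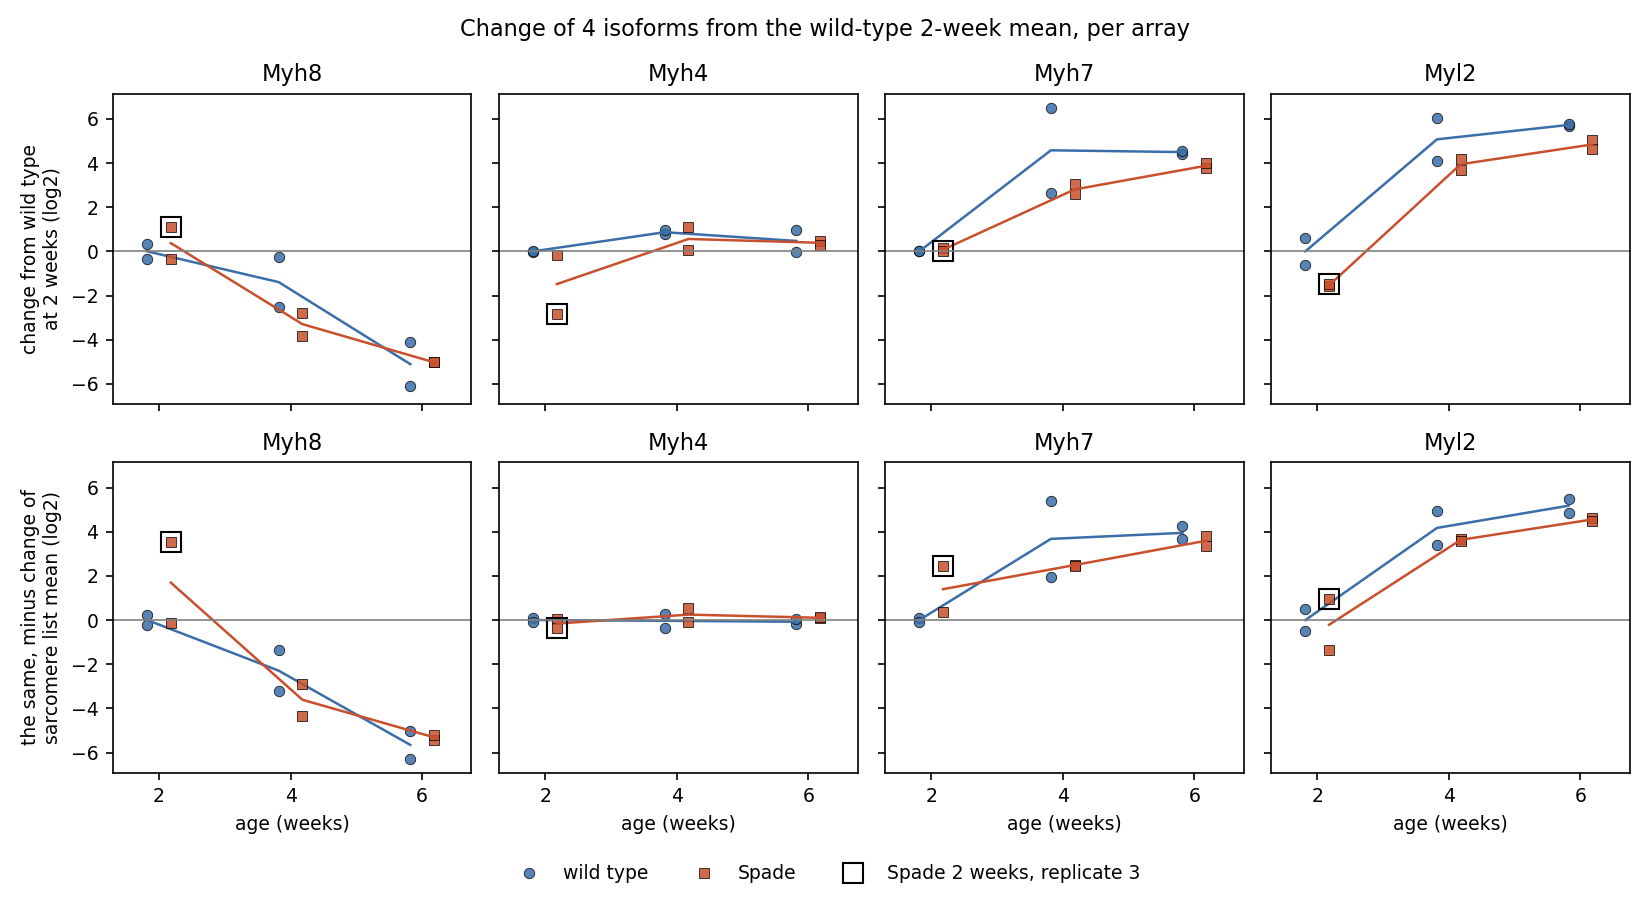
Upper row, change in GCRMA level (log2) of Myh8, Myh4, Myh7 and Myl2 from the wild-type 2-week mean; lower row, the same change minus that of the mean of 23 sarcomere genes; age in weeks on the horizontal axis, 1 point per array, lines through the means of 2 arrays. At 6 weeks both genotypes lie at -5.03 to -6.28 for Myh8 and 3.37 to 4.25 for Myh7 in the lower row, and the boxed Spade 2-week replicate 3 lies at 3.54 for Myh8.

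Whether the 2 genotypes differed in myosin level was tested with limma over all 11984 genes that passed the filter. On average over the 3 ages no myosin gene passed an adjusted p of 0.05, while 77 genes of the array (0.643%) did. All 10 were lower in Spade, with a median log2 difference of -0.61 against -0.03 over all tested genes, and adjusted p ran from 0.168 to 0.868. At an unadjusted p under 0.05 there were 2, Myl2 (-1.18 ± 0.34, adjusted p = 0.168) and Myh3 (-0.60 ± 0.19, adjusted p = 0.204), beside 14.8% of all genes. The sarcomere list was lower too, in 22 of 23 genes with a median of -0.75, and relative to its mean the differences of 7 of the 10 genes were above 0, from 0.07 for Myl1 to 0.57 for Myl4. Markers of other cell types moved beside them: 7 of 7 cartilage genes (median -0.49) and 5 of 5 adipocyte genes (-0.38) were lower in Spade with none past the test, 6 of 6 macrophage genes were higher (0.68, 2 past the test) and 8 of 8 hair shaft genes were higher (1.03, none past the test). The hair shaft average rests on Spade 2-week replicate 3, with a mean level of 12.50 there and 4.19 on the other Spade array of 2 weeks. The wild-type arrays of 2 weeks had 4.67 and 5.89. At 4 weeks 1 of 8 hair shaft genes was higher in Spade, and at 6 weeks 0 of 8. Sarcomere and cartilage means were low on Spade 2-week replicate 3 (8.04 and 9.07) against the other Spade array of 2 weeks (10.29 and 10.92). Without that replicate, all 10 myosin averages were still below 0. Those of Myh1, Myh2, Myh4 and Myl1 shrank to -0.14, -0.59, -0.18 and -0.33, from -0.57, -1.43, -0.62 and -0.65. Those of Myh8 and Myl4 grew to -0.72 and -0.34, from -0.48 and -0.15, and the other averages moved less. The part of the marker lists in the myosin differences was not tested.

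No myosin gene passed at a single age either. At 2 weeks 0% of all genes passed and the myosin median was -0.85. At an unadjusted limma p under 0.05 there were 3, beside 8.11% of all genes: Myh2 (-2.99 ± 1.25, adjusted p = 0.599), Myh3 (-0.80 ± 0.32, adjusted p = 0.599) and Myl2 (-1.54 ± 0.59, adjusted p = 0.591). Without Spade 2-week replicate 3 these differences were -0.46, -0.42 and -1.57, so only that of Myl2 was as large. With that replicate as the only Spade array of 2 weeks, 4 genes passed at 2 weeks (Myh1, Myh2, Myh4 and Myl1, all lower), where 9.9% of all genes did, and 5 on average (these and Myh3), where 8.93% did. A difference in fast myosin at 2 weeks thus rests on 1 array.

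At 4 weeks, where again 0% of all genes passed, all 10 genes were lower in Spade with a median of -0.84. None was at an unadjusted limma p under 0.05, where 3.6% of all genes were. Myh8 (-1.90 ± 0.85), Myh7 (-1.77 ± 0.94) and Myl4 (-1.20 ± 0.56) differed most, each with an adjusted p of 1.0. Without wild-type 4-week replicate 1 the Myh8 difference was -0.77 and that of Myh7 turned to 0.16. With replicate 1 as the only wild-type array of 4 weeks Myh7 passed, at -3.71 (limma, adjusted p = 0.00643), the only gene of 11984 to do so (0.00834%). Read within the first array range, which holds that replicate and both Spade arrays, the differences were -3.03 for Myh8 and -3.71 for Myh7.

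At 6 weeks 4 of all genes passed (0.0334%), and none of the 10, whose median was -0.31. In 6 of the 10 (Myh1, Myh2, Myh7, Myl1, Myl2 and Myl3) the genotypes did not overlap and Spade was lower, as in 25.7% of all genes, while 45.5% of all genes had no overlap in either direction. Among these were Myl3 (-0.62 ± 0.29, adjusted p = 0.452) and Myl2 (-0.88 ± 0.59, adjusted p = 0.622). Within the second array range, which holds both Spade arrays and 1 wild-type array, the differences of Myl3 and Myl2 were -0.66 and -0.93. Myh8 (0.08 ± 0.85) and Myh4 (-0.08 ± 0.73) overlapped between genotypes.

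**Figure D5:**
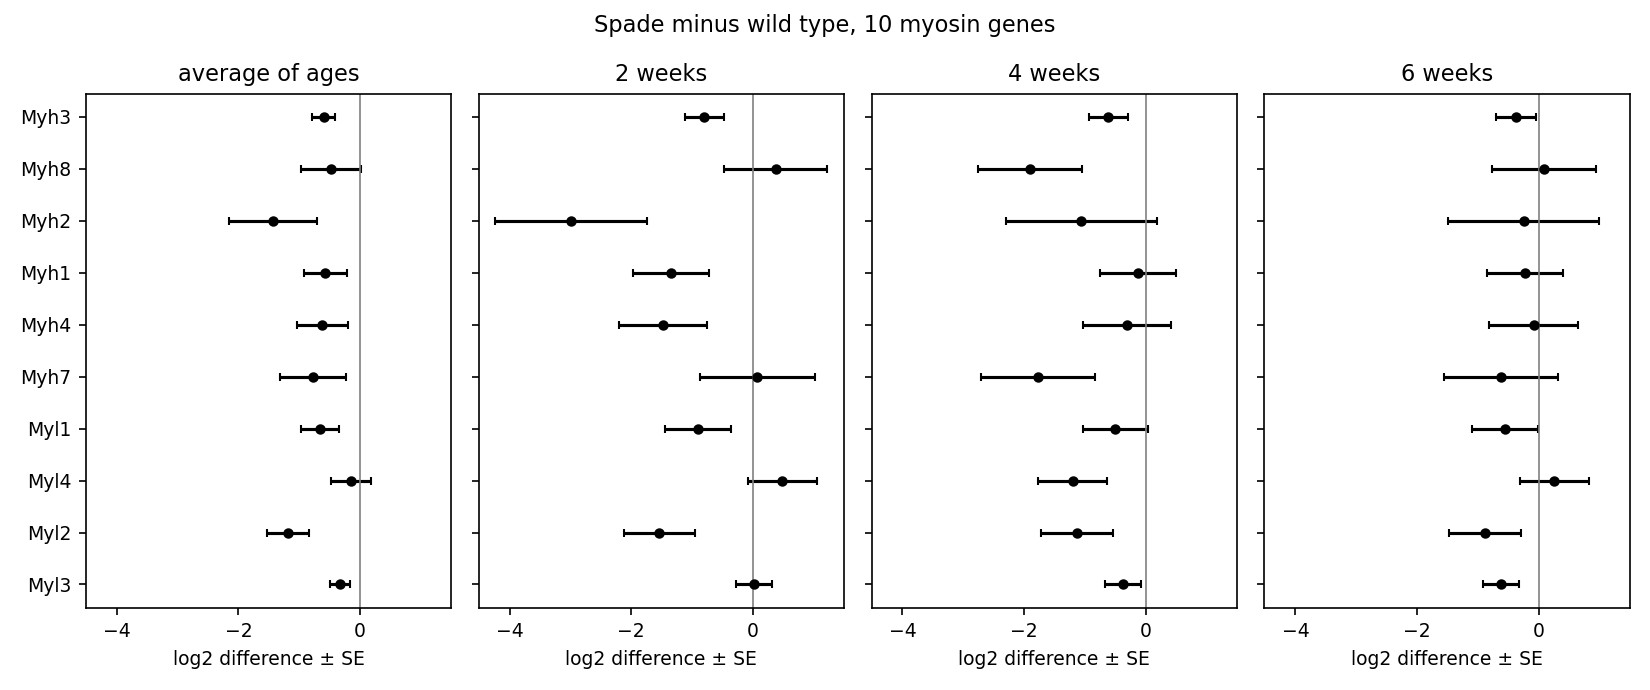
Spade minus wild type (log2 difference, horizontal axis) for the 10 myosin genes on average and at 2, 4 and 6 weeks; points are limma estimates and bars their standard errors. All 10 points lie below 0 on average and at 4 weeks, and the widest gap is Myh2 at 2 weeks (-2.99 ± 1.25).

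By the study's own criterion, a 2-fold difference with a rank product false discovery rate under 0.05 at an age or 0.001 over the ages together, myosin genes did pass. They were Myh2 and Myl2 at 2 weeks, where 1.94% of all genes passed, and Myh2, Myh7, Myh8, Myl2 and Myl4 at 4 weeks, where 1.26% did. At 6 weeks there was none (2.88% of all genes), and over the ages together there were Myh2 and Myl2 (1.31%). All of these were lower in Spade. That criterion ranks differences between pairs of arrays that share an array, so a single deviating array enters several pairs.

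The question whether age changes differed by genotype was tested as an interaction. None of the 10 genes and 0% of all genes passed for the change from 2 to 6 weeks or from 4 to 6 weeks. From 2 to 6 weeks the difference between the changes was -0.29 ± 1.21 for Myh8, -0.69 ± 1.33 for Myh7 and 0.65 ± 0.83 for Myl2, with adjusted p of 0.846 to 0.977 over the 10 genes. That of Myh2 was 2.74 ± 1.76, and 0.21 without Spade 2-week replicate 3. These errors leave room for a difference of more than 2-fold in either direction for Myh7 and Myh8.

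Other fibre genes were read from lists of fast, slow, developing and general sarcomere genes without the 10, of which 52 of 64 were tested. In wild type from 2 to 6 weeks 1 rose and 0 fell, where 4.82% of all genes passed. It was Tnnt1, slow troponin T, at 1.61 ± 0.34 (limma, adjusted p = 0.0357). The calcium buffer of slow and cardiac muscle, Casq2, gave -2.04 ± 0.52 (adjusted p = 0.0583), and Tnnc1, slow troponin C, 0.86 ± 0.53 (adjusted p = 0.357). The Tnnt1 call was lost with most arrays left out in turn, and in those fits the number passing over all genes fell too. More list genes passed without either Spade array of 2 weeks or either wild-type array of 4 weeks. Each such fit leaves 1 array in a group, so its count cannot be read as a property of the lists. With all arrays, 0 of 10 fast genes passed, and their median was 0.06 against 0.10 over all genes.

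In Spade from 2 to 6 weeks 5 rose and 3 fell, where 9.94% of all genes passed. Those that rose were Mb, the oxygen store myoglobin (5.64 ± 1.12), Tcap, a titin cap protein (3.80 ± 1.01), the calcium release channel Ryr1 (2.51 ± 0.55), the M-band protein Myom2 (2.13 ± 0.52) and Tnnt1 (2.02 ± 0.34). Those that fell were Dlk1 (-3.03 ± 0.76), Casq2 (-2.14 ± 0.52) and Igf2 (-1.94 ± 0.39). Limma adjusted p for the 8 ran from 0.0134 to 0.0488. The slow troponin T thus rose in both genotypes, and Casq2, which is listed with slow fibres, fell in Spade. Without Spade 2-week replicate 3, 3 passed and all rose, where 7.59% of all genes passed, and with it as the only Spade array of that age 39 passed, where 22.7% did. Without Spade 6-week replicate 3 or replicate 4 no list gene passed, and hardly any gene at all did (0.00834% and 0.134%). The count was 3 or 4 without either wild-type array of 2 weeks or either Spade array of 4 weeks, and 6 or 7 without 1 of the remaining 4 arrays.

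From 2 to 4 weeks only Tnnt1 passed, in Spade (2.22 ± 0.34, limma adjusted p = 0.0279, where 1.91% of all genes passed), and in wild type it was 1.79 ± 0.34 (adjusted p = 0.068), where 0.459% of all genes passed. From 4 to 6 weeks 0 of 52 list genes passed in either genotype, and 0% of all genes did. On average over ages 0 of 52 passed between genotypes, and 49 of 52 were lower in Spade. Adipocyte markers, 5 of 5 tested, rose in both genotypes from 2 to 6 weeks, among them Adipoq by 2.43 ± 0.26 in wild type, and whether this fat bears on the myosin values was not tested.

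The genes whose levels ran most like each isoform were listed by Pearson r over the 12 arrays, which share groups, ages and array ranges, so r is a description. Closest to Myh8 were Igf2bp3 (r = 0.980), Fam83d (0.968), Chodl (0.966), Igf2 (0.960) and Slc38a4 (0.959). Igf2bp3 is an RNA-binding protein of fetal tissues and Igf2 a fetal growth factor. Closest to Myh4 were Atp2a1, the fast calcium pump (0.989), Tnnc2, fast troponin C (0.984), Ckm, muscle creatine kinase (0.983), Pygm, muscle glycogen phosphorylase (0.980) and Sgca, a sarcoglycan (0.980). Myh4 and these genes were all lowest on Spade 2-week replicate 3, so that array weighs on their r. Myh4 was 10.07 there and 12.75 to 13.97 elsewhere, and Atp2a1 was 10.31 there and 12.69 to 13.90 elsewhere. Closest to Myh7 were Myl2 (0.942), Cyp2e1 (0.938), Fkbp2 (0.936), Iftap (0.935) and Ndufa13 (0.928), of which Myl2 alone is a muscle gene by its known role. Among the 10 genes, Myl4 ran most like Myh8 (0.858), and Myh3 did not (0.131).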

How the data were processed

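Total RNA of whole ears was measured on 12 arrays in 6 groups of 2. The log2 values are GCRMA levels as deposited by the authors, normalized per chip per the series design text; the GCRMA version is not given in the sources used here, and the series matrix holds the same values to within 5e-09. The intensity values are MAS5 signals as deposited, scaled by the authors on each array to a trimmed mean of 499.8 to 499.9, and supply the detection calls and 1 alternative, with a floor of 50. Between 52.35% and 58.07% of probe sets were called present; the number of arrays limits precision.

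By the array annotation, 34958 probe sets named 1 gene, 932 several and 9211 none. Each of 18194 genes was given by its probe set of highest mean. The 11984 genes at 4 or more in at least 2 arrays were fitted in limma 3.58.1 (R 4.3.3) with 6 group means, 6 residual degrees of freedom and a variance trend, and adjusted by Benjamini-Hochberg over all of them (threshold 0.05). The fit was tested on simulated data. Levels were not compared between probe sets. A fold against a group called absent on all its arrays is written as at least what was fitted, since present probe sets reached the floor of 2.14 on every array. Promoter windows are from RefSeq (GRCm38.p6); the build behind the array annotation is not given in the sources used here. The rank product criterion of the design text was recomputed with 1000 permutations (Python 3.11.15, numpy 2.4.6, pandas 2.3.3), and figures were drawn with matplotlib 3.10.9.

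The 10 genes, the lists and the tests were chosen with earlier results of these data known. Genes named beside the 10 are, for each list described and comparison, up to 4 past the threshold and up to 2 not past it, by size, and the 5 genes most like Myh8, Myh4 and Myh7; the developing muscle genes at an extreme on 1 array, single values of Dlk1, Casq2 and Adipoq, and Sln as the sole tested cardiac marker, were chosen after their values were seen. Alternatives were other filters, probe set rules, signals, scalings, priors and blocks, each array left out, a 2-fold minimum and the sarcomere list as reference. Where leaving out an array left 1 in a group, that array was assumed to vary like the other groups. Replicate numbers did not pair the samples: deviations of same-numbered arrays correlated at -0.212 to 0.251.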

Additional observations from a re-analysis of the deposited data

How the results depend on the processing

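Of 276 recomputed counts, 237 stayed within 1.5 times the value reported. All counts of myosin genes and most counts of list genes were reported as 0, so for most of these staying means that 0 remained 0. Calls of myosin genes between genotypes moved from 0 by the rank product criterion, to 2 at 2 weeks, 5 at 4 weeks and 2 on average, and no other alternative with all 12 arrays gave a call. Some calls appeared with an array left out, which leaves 1 array in a group, so they are not counted here. At 2 weeks and for the change from 2 to 6 weeks they came only with Spade 2-week replicate 3 alone in its group. Many other genes passed there too. At 4 weeks they came only with wild-type 4-week replicate 1 alone in its group, and on average with either. List genes called in Spade from 2 to 6 weeks, 8 as reported, were 1 with no filter, 3 with the mean of the probe sets, 0 with the arrays of the compared groups alone and 0 to 39 with an array left out. In wild type, 1 as reported, they were 0 with no filter or median centring, 2 with all probe sets, 3 with the compared groups alone and 0 to 7 with an array left out. Between genotypes on average they were 4 by the rank product criterion and 0 to 37 with an array left out. In Spade from 2 to 6 weeks the compared groups alone gave no call among all 11984 genes, so that 0 says nothing of the lists. Of all genes, 3.76% passed in that comparison with no filter and 6.69% with the mean of the probe sets, against 9.94% as reported. Each fit with an array left out leaves 1 array in a group, so its count cannot be read as a property of the lists. The array number range could not be fitted for changes from 2 weeks within a genotype, nor the compared groups alone for averages over ages. The causes were not tested.

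With a replicate block, list genes called from 2 to 6 weeks were 0 in either genotype, and none of the 11984 genes was called in any comparison, so these counts say nothing of the lists. The block also turned the sign of uncalled differences between genotypes: Myl4 on average (0.0002) and, at 6 weeks, Myh1 (0.057), Myh2 (0.50), Myh4 (0.18), Myh7 (0.024), Myh8 (-0.15) and Myl1 (0.077).

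In the limma fit as reported, no difference of a myosin gene between genotypes was called, and other settings turned the sign of several. Relative to the sarcomere list the averages became 0.16 for Myh1, 0.13 for Myh3, 0.10 for Myh4, 0.24 for Myh8, 0.071 for Myl1, 0.40 for Myl3 and 0.57 for Myl4. On that scale Myh3 was 0.52 and Myl1 0.42 at 2 weeks, and Myh1 0.46, Myh4 0.28, Myl1 0.088 and Myl3 0.21 at 4 weeks. At 6 weeks Myh1 was 0.033, Myh2 0.014 and Myh4 0.18, and the Spade change from 2 to 6 weeks was -0.36 for Myh1 and -0.77 for Myl3. The mean of the probe sets gave -0.032 for Myl3 at 2 weeks and 0.069 for Myh4 at 6 weeks. MAS5 signals gave 0.025 for Myh4 and the array number range 0.32 for Myh7 at 6 weeks. With an array left out, the average of Myl4 ran from -0.39 to 0.090. At 2 weeks Myh7 ran from -0.0036 to 0.15, Myh8 from -0.35 to 1.09, Myl1 from -1.86 to 0.054 and Myl4 from -0.085 to 1.06. At 4 weeks Myh4 ran from -0.83 to 0.21, Myh7 from -3.71 to 0.16 and Myl3 from -0.88 to 0.14. At 6 weeks Myh4 ran from -0.57 to 0.40, Myh8 from -0.91 to 1.07 and Myl4 from -0.35 to 0.87. The Spade change of Myh1 from 2 to 6 weeks ran from -0.049 to 2.54.

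MAS5 signals, with those under 50 set to 50, gave smaller age differences for the isoforms near background. From 2 to 6 weeks they gave at least 2.91 in wild type and at least 1.45 in Spade for Myh7. For Myl2 they gave 3.48 in wild type and at least 3.95 in Spade. The direction of Myh8, Myh7 and Myl2 from 2 to 6 weeks was kept in both genotypes under each alternative run. With 2 arrays a group the spread is pooled over all arrays, and levels near the floor limit the folds of Myh7, Myh8 and Myl2.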

Other observations

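Myh3 is known as an isoform of embryonic muscle, and its probe set was called present on all 12 arrays, with a MAS5 signal of 975.0 to 1869.5 on the 4 arrays of 6 weeks.

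Wild-type 4-week replicate 1 combined a high perinatal and a high slow isoform: Myh8 was 10.32 there against 8.06 on the other wild-type array of that age, and Myh7 10.22 against 6.35. Casq2 (10.12 against 8.25) and Dlk1 (10.68 against 8.53) differed the same way between these 2 arrays.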
